A study of Homo sapiens with 8 samples.

Results

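The genes described here are 7 that liver X receptors induce, namely ABCA1, ABCG1, ABCG5, ABCG8, PLTP, LPCAT3 and SMPDL3A. Most of them move sterol or phospholipid or remodel phospholipid, whereas SMPDL3A cleaves nucleotides. The 7 genes were taken by symbol from the deposited count table, which held all of them among 31710 genes. All 7 passed the filter on low counts that left 16972 genes for testing. The RNA came from Huh7 and Hep3B, which are 2 established human liver cancer lines, grown in DMEM with fetal bovine serum. Each line and treatment gave 1 poly(A)-selected library, 8 in all. The treatments were sertraline for 24 hours on cells already held in XL413 for 10 days (both drugs), sertraline alone, XL413 alone for 10 days, and control. XL413 inhibits the replication kinase CDC7 and, per the labels, was given to bring the cells into senescence, while sertraline is an antidepressant with a cationic amphiphilic structure. The 24 hours are stated for pretreated cells, the labels give no time of their own for sertraline alone, and no vehicle is named for the control. Doses were not stated in these sources, nor was any genotype change of either line.

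Liver X receptors are nuclear receptors that sit on DNA as partners of retinoid X receptors and switch on their targets when oxysterols or related sterol intermediates accumulate. Some of their targets carry surplus cholesterol away. ABCA1 loads cholesterol and phospholipid onto lipid-poor apolipoprotein A-I, and ABCG1 passes sterol on to HDL particles. ABCG5 and ABCG8 work as a pair that secretes sterols from hepatocytes into bile. PLTP transfers phospholipid between lipoproteins, LPCAT3 puts polyunsaturated chains back into membrane phospholipids, and SMPDL3A is a secreted nucleotide-cleaving relative of acid sphingomyelinase that liver X receptors induce in human macrophages. The opposing arm is SREBP2, which switches on sterol synthesis and uptake when sterol in the endoplasmic reticulum is low.

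Promoter windows of 300 bases, 250 before to 50 after the transcription start, were read from RefSeq on GRCh38.p14 and matched 5 of the 7 genes, the exceptions being ABCG1 and SMPDL3A. Those of ABCA1, ABCG8 and PLTP are shown because these genes head the results on treatments or on lines. Motifs found in them are in capitals. The ABCA1 window, chr9:104928106-104928405 on the minus strand, holds a DR4-type element, the direct repeat bound by liver X and retinoid X receptors, from -69 to -55, and an E-box from -147 to -142. The ABCG8 window, chr2:43838721-43839020 on the plus strand, holds a GATA box from -108 to -103. The PLTP window, chr20:45912106-45912405 on the minus strand, holds an E-box from 43 to 48 after the start.
ABCA1: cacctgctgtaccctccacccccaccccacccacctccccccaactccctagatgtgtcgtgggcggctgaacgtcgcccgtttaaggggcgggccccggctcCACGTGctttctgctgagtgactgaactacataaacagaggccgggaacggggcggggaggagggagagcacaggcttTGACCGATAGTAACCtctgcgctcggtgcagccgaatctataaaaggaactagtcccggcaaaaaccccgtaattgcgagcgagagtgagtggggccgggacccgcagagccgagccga
ABCG8: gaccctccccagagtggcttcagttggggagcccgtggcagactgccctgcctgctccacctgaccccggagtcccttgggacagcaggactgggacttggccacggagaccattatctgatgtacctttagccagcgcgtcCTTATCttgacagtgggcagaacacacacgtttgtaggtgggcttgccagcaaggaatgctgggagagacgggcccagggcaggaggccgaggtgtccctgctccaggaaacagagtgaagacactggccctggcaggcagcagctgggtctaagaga
PLTP: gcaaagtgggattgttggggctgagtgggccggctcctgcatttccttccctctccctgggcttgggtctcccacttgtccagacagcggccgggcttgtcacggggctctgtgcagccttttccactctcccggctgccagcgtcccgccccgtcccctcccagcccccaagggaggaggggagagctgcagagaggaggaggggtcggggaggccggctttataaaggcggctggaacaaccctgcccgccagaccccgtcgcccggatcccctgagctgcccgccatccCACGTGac
ABCG5 and ABCG8 are transcribed away from each other, their starts lie 132 bases apart and their windows share 231 bases, so that the GATA box of ABCG8 lies from -29 to -24 of ABCG5. Both strands were searched with GGTNA, 5 bases of any kind and GGTNA again for the DR4-type element, GATAAG for the GATA box and CACGTG for the E-box, and no match overlapped another motif. Of 35116 promoters of the same length, 0.626% held the first, 6.36% the second and 7.26% the third. The LPCAT3 window and a second PLTP window held none of these letters.

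Libraries held 20275392 to 30842770 reads, lowest in Hep3B with XL413 and highest in Hep3B with both drugs. Because each treatment was measured in a single library per line, the 2 lines are the replicates of a treatment, and a p-value weighs a change by how unevenly the lines responded. Whether cultures were separate is not stated in the labels. All 9 hepatocyte markers listed were above 1 CPM in all libraries, with summed levels of 35761 to 51463 CPM in Huh7 and 30062 to 45724 CPM in Hep3B. Of 5 macrophage and immune markers none reached 1 CPM in all libraries (summed 1.28 to 2.0 CPM in Huh7 and 3.69 to 4.45 CPM in Hep3B), nor did any of 3 endothelial markers (3.76 to 6.62 and 0.666 to 1.31 CPM), and 2 of 4 fibroblast markers did (23.5 to 64.1 and 10.1 to 24.8 CPM). None of these lists had a gene at 0 in all libraries. In bulk RNA, a smaller share of cells with a transcript and less of it per cell cannot be told apart.

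The lines differed in their levels of most efflux genes, as they did for most genes tested (62.7% called by edgeR). In Huh7 all 4 transporters and PLTP were higher than in Hep3B, while LPCAT3 was lower and SMPDL3A was not separated. Levels are CPM, read counts scaled to library size with TMM factors. ABCG8 had 8.12 CPM with both drugs, 12.6 with sertraline, 7.02 with XL413 and 11.1 in control in Huh7, against 4, 9, 1 and 5 reads in Hep3B, or 0.0471 to 0.315 CPM. ABCG5 had 2.41, 3.0, 2.07 and 2.49 CPM in Huh7 in the same order, against 2, 1, 0 and 2 reads in Hep3B, and the count of 0 allows up to 0.141 CPM. Hep3B was therefore at or near the limit of counting for both members of the biliary pair in every treatment, and the lines did not overlap.

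ABCG1 had 14, 17, 37 and 69 reads in Huh7 (0.462, 0.622, 1.30 and 2.64 CPM with both drugs, sertraline, XL413 and control), against 3, 1, 1 and 4 reads in Hep3B. It was under 1 CPM in 6 of the 8 libraries and is the weakly expressed gene of the 7, while ABCG5 and ABCG8 were under 1 CPM in the 4 Hep3B libraries. Summed over treatments, Huh7 against Hep3B gave 137 against 9 reads of ABCG1, 279 against 5 of ABCG5 and 1082 against 19 of ABCG8. Sentences on these 3 genes in Hep3B thus rest on a handful of reads.

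ABCA1 averaged 160 ± 20.9 CPM in Huh7 and 88.9 ± 29.8 CPM in Hep3B (SD over the 4 treatments of a line). PLTP averaged 60.6 ± 22.6 CPM in Huh7 and 8.54 ± 3.95 CPM in Hep3B. LPCAT3 averaged 64.0 ± 8.05 CPM in Huh7 and 85.1 ± 17.4 CPM in Hep3B, and SMPDL3A 18.1 ± 3.28 and 16.8 ± 4.81 CPM. ABCA1 and PLTP did not overlap between the lines, whereas LPCAT3 and SMPDL3A did. How many of all genes tested were without overlap was not counted, so whether this is particular to these genes was not tested.

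In edgeR's quasi-likelihood test of Huh7 against Hep3B, 5 of the 7 genes were called higher and 1 lower. Of all genes tested 62.7% were called, 31.4% in each direction. The differently treated libraries of a line serve as its replicates here. The p-values thus weigh how far the line difference varied over treatments, and not the spread between repeated cultures of a line. The log2 difference was 5.84 ± 0.26 for ABCG8 (SE, adjusted p = 7.17e-07), 5.68 ± 0.40 for ABCG5 (adjusted p = 8.42e-06) and 3.78 ± 0.43 for ABCG1 (adjusted p = 0.000112). Each SE in this report from edgeR is the size of a log2 change divided by the square root of its F statistic. These 3 genes passed the filter on low counts only through Huh7, the line where they are higher. Their calls are therefore not independent of that filter and add no support to the count of genes called higher. These 3 fitted values and their SEs depend on a prior count, since Hep3B had so few reads. Their SEs may therefore understate counting error. It was 2.85 ± 0.10 for PLTP (adjusted p = 2.18e-07) and 0.90 ± 0.12 for ABCA1 (adjusted p = 0.000252). LPCAT3 was lower in Huh7 by -0.40 ± 0.13 (edgeR adjusted p = 0.0299), and SMPDL3A differed by 0.13 ± 0.19 (adjusted p = 0.568). The LPCAT3 call was lost without the Huh7 or the Hep3B library of sertraline or of both drugs, with values of -0.30, -0.29, -0.30 and -0.30 and adjusted p from 0.106 to 0.131. Of the receptors, NR1H3 (LXR alpha) differed by -0.81 ± 0.10 (edgeR adjusted p = 0.000163), RXRA by 0.61 ± 0.10 (adjusted p = 0.00073) and RXRB by -1.14 ± 0.08 (adjusted p = 8.95e-06). NR1H2 (LXR beta) differed by 0.17 ± 0.10 and was not called (edgeR adjusted p = 0.151).

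Between genes, levels can be set side by side only per length of exon. In Huh7 the order in reads per kilobase of exon, scaled to depth (RPKM), was PLTP (23.8 ± 8.90), ABCA1 (14.1 ± 1.84), LPCAT3 (13.6 ± 1.70), SMPDL3A (7.69 ± 1.40), ABCG8 (0.955 ± 0.255), ABCG5 (0.670 ± 0.103) and ABCG1 (0.205 ± 0.162; mean ± SD over 4 treatments). Over treatments, PLTP and ABCA1, ABCA1 and LPCAT3, and ABCG8 and ABCG5 overlapped in that order, and the other neighbours did not. Within a library, PLTP was above ABCA1 and ABCG8 above ABCG5 in all 4 Huh7 libraries, and ABCA1 was above LPCAT3 in 3 of 4. In Hep3B the order was LPCAT3 (18.0 ± 3.68), ABCA1 (7.83 ± 2.63), SMPDL3A (7.14 ± 2.05) and PLTP (3.36 ± 1.56), with the other 3 at 0.0163 or less on average. There ABCA1 and SMPDL3A, and SMPDL3A and PLTP, overlapped over treatments, although SMPDL3A was above PLTP in all 4 libraries and ABCA1 above SMPDL3A in 2. The place of PLTP is what differs most between these orders, first in Huh7 and the fourth in Hep3B.

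**Figure D1:**
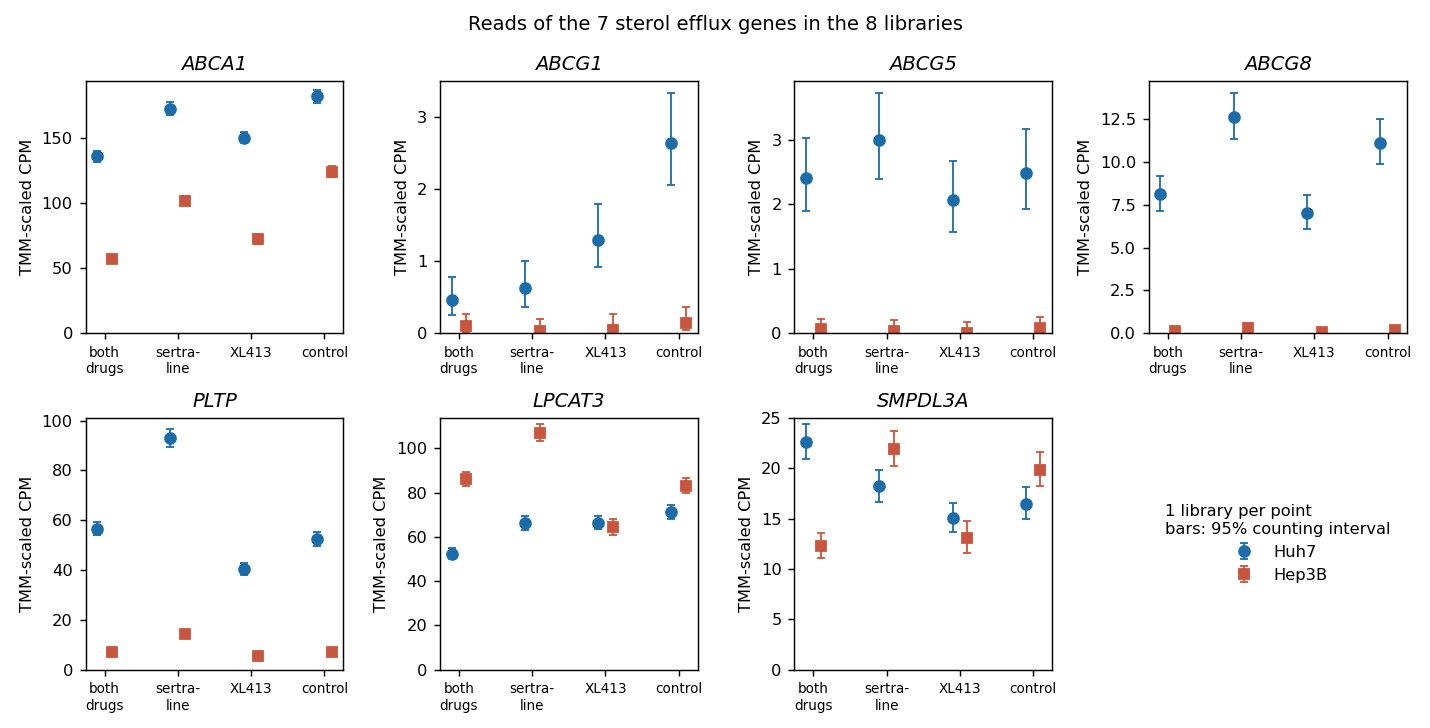
TMM-scaled CPM (vertical axis, linear from 0, own scale per gene) of the 7 genes with both drugs, sertraline, XL413 and control, 1 point per library, Huh7 as circles and Hep3B as squares, with 95% Poisson intervals that cover counting error only. In each line PLTP was highest with sertraline alone (92.9 CPM for Huh7, 14.3 CPM for Hep3B), and ABCG5 and ABCG8 stayed near 0 in Hep3B.

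Sertraline against control asks what the drug did to cells that had not been pretreated. PLTP rose, and it was the only one of the 7 that was called. PLTP had 92.9 CPM with sertraline against 52.6 in control in Huh7, and 14.3 CPM with sertraline against 7.13 in control in Hep3B. Both lines moved the same way, by 1.77-fold in Huh7 and 2.01-fold in Hep3B. Over both lines the log2 change was 0.91 ± 0.13 (edgeR adjusted p = 0.0107), where 4.9% of genes tested were called, 2.96% higher and 1.94% lower. The call was lost without the Huh7 control (adjusted p = 0.0614), the Hep3B control (adjusted p = 0.0724) or the Hep3B sertraline library (adjusted p = 0.0523), with log2 values of 0.93, 0.89 and 0.81.

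ABCG1, the other gene near the threshold, had fewer reads with the drug. It had 17 reads with sertraline against 69 in control in Huh7, and 1 read against 4 in Hep3B. The log2 change was -2.02 ± 0.52 (edgeR adjusted p = 0.0678), and it was called only with no filter on low counts (adjusted p = 0.0198). The other 5 genes had edgeR adjusted p from 0.56 to 0.873. Among them ABCA1 had 172 CPM with sertraline against 182 in control in Huh7, and 102 against 124 in Hep3B, a change of -0.19 ± 0.17. The median change of the 7 was 0.14, beside 0.015 over all genes tested.

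Sertraline was also given to cells pretreated with XL413, and here PLTP again had more reads with the drug. PLTP had 56.7 CPM with both drugs against 40.3 with XL413 in Huh7, and 7.28 against 5.42 in Hep3B. The log2 change was 0.46 ± 0.13 (edgeR adjusted p = 0.152) and did not pass. None of the 7 was called, where 0.937% of genes tested were, 0.666% higher and 0.271% lower. ABCG1 had 14 reads with both drugs against 37 with XL413 in Huh7 and 3 against 1 in Hep3B. The PLTP ratio in pretreated cells was 1.41-fold in Huh7 and 1.34-fold in Hep3B, below the ratio in cells without XL413 in each line. The test of that difference, the interaction of the drugs, gave -0.45 ± 0.19 for PLTP (unadjusted p = 0.0415, edgeR adjusted p = 1), and no gene of 16972 was called in it, with 140 at an unadjusted p under 0.05. DESeq2 called 0 genes in it as well.

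XL413 against control asks what the pretreatment itself did. All 7 genes had fitted changes below 0, and none passed. ABCA1 had 150 CPM with XL413 against 182 in control in Huh7, and 72.3 against 124 in Hep3B. The log2 change of ABCA1 was -0.53 ± 0.17 (edgeR adjusted p = 0.357), that of ABCG8 -0.73 ± 0.32 (adjusted p = 0.464) and that of PLTP -0.39 ± 0.13 (adjusted p = 0.39). Without the Hep3B control the ABCA1 value was -0.29. No gene was called in this comparison (0% of genes tested), although 1828 had an unadjusted edgeR p under 0.05 and DESeq2 called 201 genes, ABCA1 and PLTP not among them (adjusted p = 0.218 and 0.364). The median of the 7 was -0.40, beside 0.008 over all genes.

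Both drugs against sertraline asks what the pretreatment did where sertraline was present in both groups, and the 3 genes with the smallest p are given first. PLTP had 56.7 CPM with both drugs against 92.9 with sertraline in Huh7, and 7.28 against 14.3 in Hep3B. ABCA1 had 136 CPM with both drugs against 172 with sertraline in Huh7, and 57.3 against 102 in Hep3B. ABCG8 had 8.12 CPM with both drugs against 12.6 with sertraline in Huh7, and 4 against 9 reads in Hep3B. In each of these the library with both drugs was the lower in both lines. The log2 changes were -0.84 ± 0.13 for PLTP (edgeR adjusted p = 0.0829), -0.58 ± 0.17 for ABCA1 (adjusted p = 0.244) and -0.77 ± 0.31 for ABCG8 (adjusted p = 0.356), and all 7 fitted changes were below 0. The median of the 7 was -0.322, beside -0.003 over all genes tested. ABCG1 (-0.09 ± 0.60) and ABCG5 (-0.22 ± 0.44) had SEs larger than their changes and few reads in Hep3B. Single libraries did not all follow: SMPDL3A in Huh7 had 22.6 CPM with both drugs against 18.2 with sertraline, and ABCG1 in Hep3B 3 reads against 1. Without the Huh7 sertraline library the ABCG8 value was -1.47, and the ABCA1 value was -0.36 once the Hep3B library given both drugs was left out. edgeR called 0 genes (0%), with 2173 at an unadjusted p under 0.05, and DESeq2 called 334. PLTP was among those called by DESeq2 (adjusted p = 5.63e-05) and was called by edgeR with no filter on low counts (adjusted p = 0.0035).

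Both drugs against control combines the treatments. Here ABCA1 and ABCG1 fell, and PLTP, with 56.7 CPM against 52.6 in Huh7 and 7.28 against 7.13 in Hep3B, stood close to control. ABCA1 had 136 CPM with both drugs against 182 in control in Huh7, and 57.3 against 124 in Hep3B, so both lines were lower. ABCA1 fell by 0.77 ± 0.17 on the log2 scale (edgeR adjusted p = 0.0318), and ABCG1, with 14 against 69 reads in Huh7 and 3 against 4 reads in Hep3B, fell by 2.11 ± 0.53 (adjusted p = 0.0465). These are 2 of 7 genes called lower, where 9.22% of genes tested were called, 4.84% higher and 4.37% lower. PLTP differed by 0.07 ± 0.13 (edgeR adjusted p = 0.754).

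The ABCA1 call was lost without the Huh7 library of both drugs (-1.0, adjusted p = 0.126), the Hep3B control (-0.53, adjusted p = 0.183) or the Hep3B library of both drugs (-0.55, adjusted p = 0.165). The ABCG1 call was lost without any 1 library except the Hep3B sertraline library, with edgeR adjusted p from 0.0503 to 0.82, and without the Huh7 library of both drugs its change was -0.55. DESeq2 gave ABCG1 a change of -1.85 and no adjusted p. The comparisons with control share the 2 control libraries, so their values are not independent of each other.

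**Figure D2:**
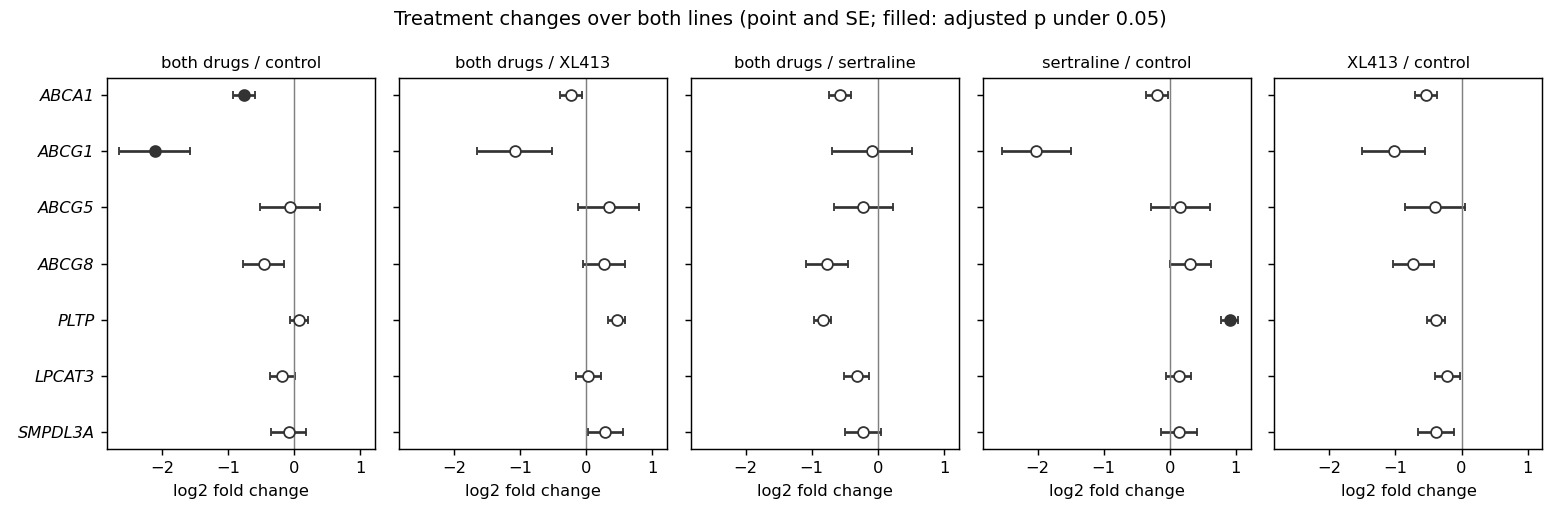
Log2 fold changes over both lines (horizontal axis, point and SE) of the 7 genes in 5 treatment comparisons, filled where the edgeR adjusted p was under 0.05. PLTP was filled for sertraline against control (0.91), and ABCA1 (-0.77) and ABCG1 (-2.11) for both drugs against control.

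Whether the lines responded alike was tested in a model with drug effects of their own for each line, whose error is the departure of the 2 drugs from additive effects inside a line and not the spread between cultures. The effect of XL413 on ABCA1 was weaker in Huh7 than in Hep3B, and that on SMPDL3A, a fall in Hep3B, was not called in Huh7. ABCA1 with XL413 stood at 0.826 of control in Huh7 and at 0.583 of control in Hep3B, and with both drugs at 0.788 and 0.563 of sertraline alone. The difference of the XL413 effect, Huh7 minus Hep3B, was 0.49 ± 0.13 for ABCA1 (edgeR adjusted p = 0.0212) and 0.82 ± 0.18 for SMPDL3A (adjusted p = 0.00653), where 8.9% of genes tested were called, 4.96% above 0 and 3.94% below. ABCA1 lost this call without any 1 of the 4 Huh7 libraries (adjusted p from 0.136 to 0.184), and SMPDL3A without the Huh7 library of sertraline or of both drugs (0.59 in each, adjusted p = 0.219 and 0.224).

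SMPDL3A had 22.6 CPM with both drugs, 18.2 with sertraline, 15.0 with XL413 and 16.5 in control in Huh7, against 12.3, 21.9, 13.1 and 19.9 CPM in Hep3B. In Hep3B both libraries with XL413 were below both without it, whereas in Huh7 the libraries with sertraline were above those without it. LPCAT3 had 52.4, 66.2, 66.5 and 71.1 CPM in Huh7 in the same order, against 86.2, 107, 64.5 and 83.0 CPM in Hep3B. With sertraline LPCAT3 was lower in both pairs of Huh7 libraries and higher in both pairs of Hep3B libraries. The difference of the sertraline effect, Huh7 minus Hep3B, was -0.61 ± 0.14 for LPCAT3 (edgeR adjusted p = 0.0137), the only 1 of the 7 called where 4.34% of genes were, 1.77% above 0 and 2.57% below. It was lost without the Huh7 library of XL413 or of both drugs (-0.49 in each, adjusted p = 0.275 and 0.279).

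Inside each line, in the same model and with effects averaged over the other drug, PLTP was the gene called in all 4 tests. These tests were chosen after seeing the data. In Huh7 with sertraline PLTP rose by 0.66 ± 0.12 (edgeR adjusted p = 0.00022) and SMPDL3A by 0.37 ± 0.13 (adjusted p = 0.0355), and ABCG1 fell by 1.82 ± 0.34 (adjusted p = 0.000404), 3 of 7 where 27.9% of genes were called, 14.3% higher and 13.6% lower. In Hep3B with sertraline PLTP rose by 0.76 ± 0.15 (edgeR adjusted p = 0.000947) and LPCAT3 by 0.39 ± 0.10 (adjusted p = 0.00543), and ABCA1 fell by 0.31 ± 0.09 (adjusted p = 0.0208), 3 of 7 where 24.1% were called, 11.8% higher and 12.3% lower.

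With XL413 every called member was lower. In Huh7 PLTP fell by 0.55 ± 0.12 (edgeR adjusted p = 0.00193), ABCG8 fell by 0.65 ± 0.15 (adjusted p = 0.0035) and ABCA1 fell by 0.31 ± 0.09 (adjusted p = 0.0216), 3 of 7 where 20.5% of genes were called, 11.6% higher and 8.99% lower. In Hep3B ABCA1 fell by 0.80 ± 0.09 (edgeR adjusted p = 6.84e-06), PLTP fell by 0.74 ± 0.15 (adjusted p = 0.00178), SMPDL3A fell by 0.72 ± 0.13 (adjusted p = 0.000616) and LPCAT3 fell by 0.34 ± 0.10 (adjusted p = 0.0204), 4 of 7 where 17.1% were called, 8.84% higher and 8.21% lower. ABCG5, with 59 to 82 reads per library in Huh7, was called in none of the tests of drugs. LPCAT3 in Hep3B with sertraline, and ABCA1 and SMPDL3A in Hep3B with XL413, kept their calls without any 1 library. The PLTP call for sertraline was lost in Huh7 without the control (0.49, adjusted p = 0.0635) or sertraline library (0.49, adjusted p = 0.0652), and in Hep3B without the control (0.44, adjusted p = 0.182) or sertraline library (0.42, adjusted p = 0.198). The PLTP call for XL413 was lost in Huh7 without the library of sertraline (-0.39, adjusted p = 0.268) or of both drugs (-0.39, adjusted p = 0.265), and in Hep3B without the same libraries (-0.40 in each, adjusted p = 0.188 and 0.189). In all, 10 of the 13 calls inside a line were lost without 2 or 4 of the 8 libraries left out in turn, and SMPDL3A with sertraline in Huh7 was 0.14 without the library of XL413 or of both drugs, with adjusted p of 0.753 and 0.745.

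**Figure D3:**
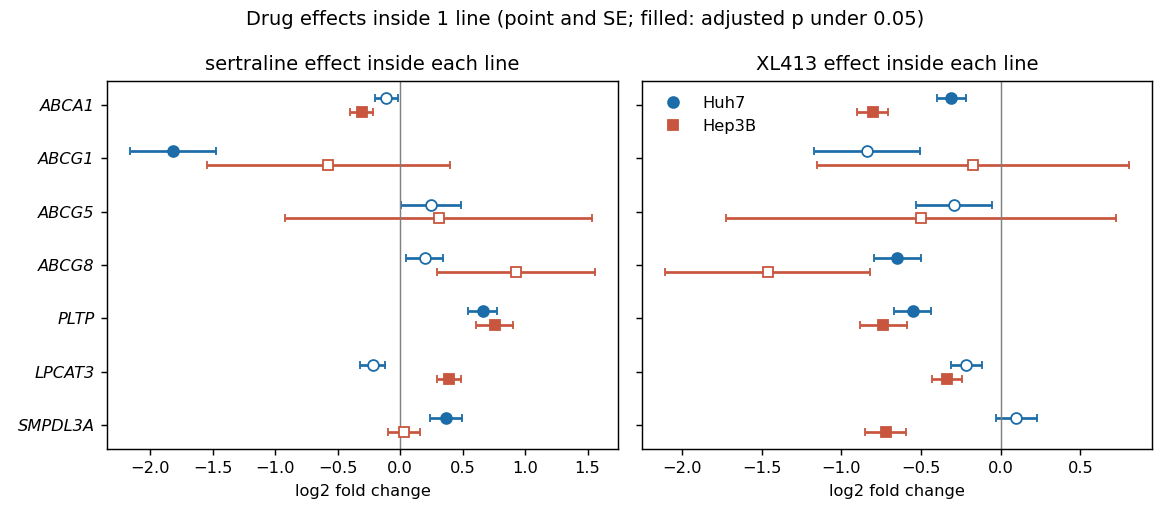
Log2 fold changes for sertraline (left) and XL413 (right) inside each line (horizontal axis, point and SE), Huh7 as circles and Hep3B as squares, filled where the edgeR adjusted p was under 0.05. PLTP was filled in all 4 tests, above 0 for sertraline (0.66 in Huh7 and 0.76 in Hep3B) and below 0 for XL413 (-0.55 and -0.74).

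In the deposited table, on GRCh38, ABCA1 (ENSG00000165029) spans chromosome 9 from 104781002 to 104928237 on the minus strand and ABCG1 (ENSG00000160179) chromosome 21 from 42199689 to 42297244 on the plus strand. ABCG5 (ENSG00000138075, 43812472 to 43838865, minus strand) and ABCG8 (ENSG00000143921, 43838964 to 43878466, plus strand) lie side by side on chromosome 2, and SMPDL3A (ENSG00000172594) spans chromosome 6 from 122789049 to 122809720 on the plus strand. Neighbouring genes on the other strand were counted too, and it is not stated whether the counting used strand. CTSA, a lysosomal carboxypeptidase, overlaps 200 bases at the end of PLTP (ENSG00000100979, chromosome 20, 45898621 to 45912155, minus strand). CTSA had 264 CPM with both drugs, 199 with sertraline, 138 with XL413 and 113 in control in Huh7, and 445, 352, 316 and 241 CPM in Hep3B. Like PLTP, CTSA was higher with sertraline in both lines, with and without XL413. CTSA was highest with both drugs, where PLTP stood close to control. C1S, a complement protease, overlaps 30252 bases of LPCAT3 (ENSG00000111684, chromosome 12, 6976186 to 7018510, minus strand), and had 41.1, 19.9, 27.5 and 15.1 CPM in Huh7 and 61.5, 34.8, 54.1 and 28.96 CPM in Hep3B. C1S was higher with sertraline in both lines, whereas LPCAT3 was lower with it in Huh7 and higher in Hep3B. EMG1, a ribosome biogenesis methyltransferase that overlaps 434 bases of LPCAT3, was lower with sertraline in both lines, at 13.1, 18.2, 19.0 and 21.8 CPM in Huh7 and 14.8, 16.8, 19.7 and 22.1 CPM in Hep3B. U47924.30, which overlaps 1421 bases, was also lower with it in both lines, at 7.95, 9.58, 9.99 and 10.6 CPM in Huh7 and 5.74, 6.20, 6.45 and 7.09 CPM in Hep3B. The part of these overlaps in the counts was not tested.

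NR1H3, NR1H2, RXRA and RXRB were not called in any of the 5 comparisons of treatments over both lines. NR1H3 changed by 0.25 ± 0.14 with sertraline against control (edgeR adjusted p = 0.341), NR1H2 by 0.09 ± 0.14 (adjusted p = 0.73) and RXRA by 0.37 ± 0.14 (adjusted p = 0.169). Inside Huh7, RXRA rose with sertraline by 0.45 ± 0.10 (edgeR adjusted p = 0.00186) and fell by 0.34 ± 0.10 with XL413 (adjusted p = 0.0181), and no other of these 4 was called inside a line. Of 11 receptor and regulator genes tested, 6 rose with sertraline inside Huh7, where 14.3% of genes were higher, and 3 inside Hep3B, where 11.8% were. Over both lines 1 of the 11 rose with sertraline against control, where 2.96% of genes tested were higher, and it was the coactivator PPARGC1A. PPARGC1A had 7.61 CPM with sertraline against 2.26 in control in Huh7 and 21.5 against 4.93 in Hep3B, a change of 1.97 ± 0.41 (adjusted p = 0.0343).

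Of 10 other targets of liver X receptors, 2 rose and 2 fell with sertraline against control, where 2.96% of genes tested were higher and 1.94% lower. SCD, the stearoyl-CoA desaturase, rose by 1.36 ± 0.29 (edgeR adjusted p = 0.0389) and MLXIPL, the carbohydrate-response factor ChREBP, by 1.69 ± 0.35 (adjusted p = 0.0342). MYLIP, the ubiquitin ligase that degrades the LDL receptor, fell by 0.97 ± 0.20 (edgeR adjusted p = 0.0362). MYLIP had 4.87 CPM with sertraline against 10.8 in control in Huh7, and 3.75 against 6.45 in Hep3B. It also stood at 6.24 CPM with both drugs against 11.5 with XL413 in Huh7, and at 3.82 against 6.83 in Hep3B.

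Most of the SREBP2 targets rose with sertraline, in both comparisons. Of 10 tested, 9 rose and none fell with sertraline against control (2.96% of genes tested were higher), with a median of 1.51, beside 0.14 for the 7 efflux genes. INSIG1, which holds the SREBP complex in the endoplasmic reticulum, had 499.6 CPM with sertraline against 176 in control in Huh7, and 370.4 against 84.3 in Hep3B. Both lines were higher with the drug, and INSIG1 rose by 1.85 ± 0.24 (edgeR adjusted p = 0.00837). In pretreated cells 9 of 10 rose as well (0.666% of genes tested were higher), with a median of 1.65, beside 0.265 for the efflux genes. With XL413 against control the median of the SREBP2 targets was -0.85, and none was called, nor was any other gene tested. Inside Huh7, 9 of the 10 were called lower with XL413 (8.99% of genes tested were lower), with a median of -0.57. Inside Hep3B all 10 were called lower with it (8.21% of genes tested were lower), with a median of -1.03.

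Genes for sterol acceptors and storage gave 2 of 13 higher with sertraline against control, where 2.96% of genes tested were higher, a share that holds also for the counts of enzymes and paralogs below. SOAT2, which esterifies cholesterol in hepatocytes, rose by 1.34 ± 0.12 (edgeR adjusted p = 0.00407) and LIPG, endothelial lipase, by 0.98 ± 0.22 (adjusted p = 0.0455). SOAT2 also rose in pretreated cells, by 0.96 ± 0.13 (adjusted p = 0.0189). Of 5 oxysterol and bile acid enzymes tested, 1 rose, namely CYP27A1, which makes an oxysterol from cholesterol and rose by 0.86 ± 0.15 (edgeR adjusted p = 0.0206). Of 14 paralogs of the 7 genes, 3 rose with sertraline against control, namely LPCAT1 (1.02 ± 0.16, adjusted p = 0.0139), MBOAT7 (0.54 ± 0.11, adjusted p = 0.0337) and SMPD1, acid sphingomyelinase (0.60 ± 0.13, adjusted p = 0.0356).

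**Figure D4:**
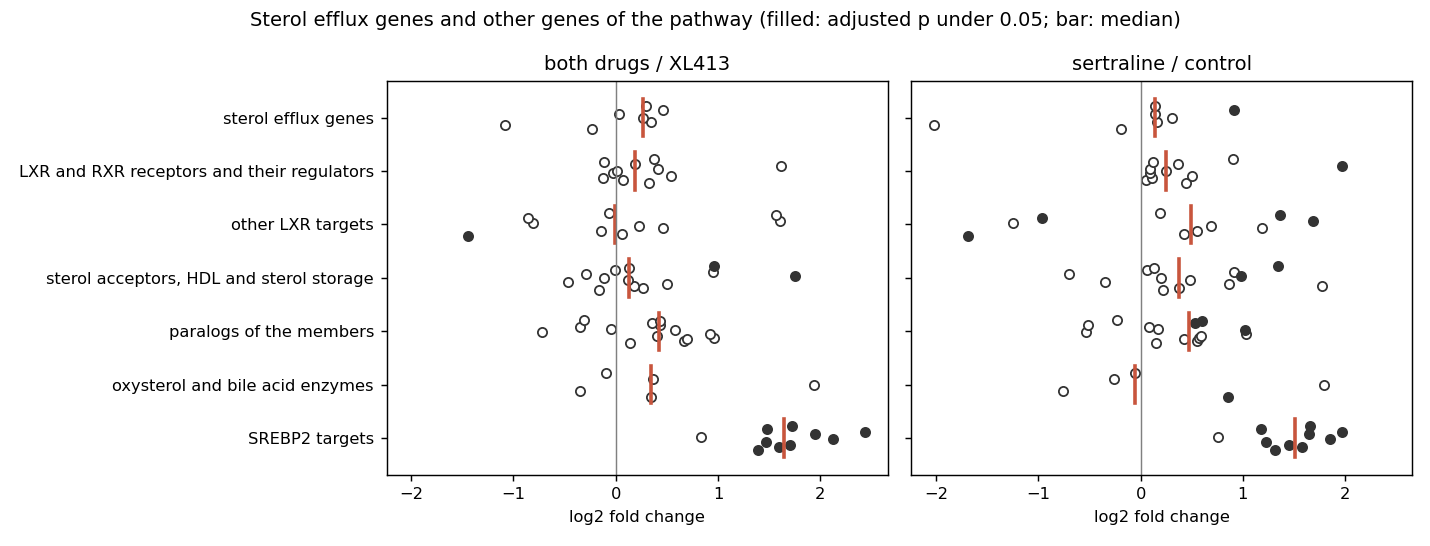
Log2 fold changes (horizontal axis) of the 7 efflux genes and of 6 lists of other pathway genes, 1 point per gene tested, for both drugs against XL413 (left) and sertraline against control (right), filled where the edgeR adjusted p was under 0.05, with the median of each list as a bar. The SREBP2 targets lie to the right, with medians of 1.65 and 1.51, while the efflux genes spread to both sides of 0, on the right from -2.02 (ABCG1) to 0.91 (PLTP), with medians of 0.265 and 0.14.

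How far the 7 genes varied together was described with log2 CPM less the mean of each line, over the same 8 libraries, which share depth and treatments. ABCG1, ABCG5 and ABCG8 are left out, since their Hep3B libraries held 0 to 9 reads. Correlations between pairs of the other 4 ran from 0.23 (LPCAT3 and SMPDL3A) to 0.63 (ABCA1 and SMPDL3A). On the same measure, over 11390 other genes, all averaging at least 1 on the log2 CPM scale, the closest patterns to PLTP were those of SEMA3G (0.99), P2RY2 (0.99) and C14orf93 (0.99). The closest to ABCA1 were ARPC3 (0.99), CENPH (0.99) and TRMT10A (0.99), and to LPCAT3 ACO1 (0.99), CDC42BPB (0.99) and SEMA4G (0.95). The closest to SMPDL3A were GLT1D1 (0.99), CAPN7 (0.98) and PHF14 (0.97). With this many genes over 8 libraries, such values are a description of these libraries and nothing more.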

How the data were processed

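Whole-number counts of reads per gene were deposited by the authors for 8 poly(A)-selected, stranded libraries, not normalized. HISAT2, HTSeq and GRCh38 (hg38) are named in the submitters' processing notes; their versions, the annotation release and the strand setting were not stated. Columns carry the library titles of the labels.

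Counts were analysed in R 4.3.3 with edgeR 4.0.16 (TMM scaling, filterByExpr on treatment with a minimum count of 10, glmQLFit, glmQLFTest), with 14738 genes removed. The treatment model had terms for line and treatment (3 residual degrees of freedom), and a second model had line-specific effects of each drug (2 residual degrees of freedom). Benjamini-Hochberg adjustment ran over all 16972 genes, with calls under 0.05. Counting intervals are exact Poisson 95% intervals, and a count of 0 allows 3 reads; both cover counting error only. Libraries of a line share their cells, and their deviations from treatment means correlated with r of 0.89 to 0.95, so the line is the block. The ratios between 2 libraries have no test. Exon lengths for reads per kilobase came from GENCODE on the same build. Fits were tested on simulated data. The 7 genes and all lists were chosen with earlier results of these data known; the rule names all 7 in every comparison, plus called members of the lists, some of which are not reported here. Alternatives were DESeq2 1.42.0, DESeq2 size factors, no filter, no block, each library left out, and other pseudocounts than 0.5 CPM. Figures were drawn with matplotlib 3.10.9.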

Additional observations from a re-analysis of the deposited data

Results flagged for a closer look

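Drug effects that differed between the lines by a test of the difference itself (edgeR, Huh7 minus Hep3B on the log2 scale) were found for 3 of the 7 genes. Of all genes tested, 4.34% were called for the sertraline effect and 8.9% for the XL413 effect. Each of the 3 calls was lost when some single libraries were left out, as given above. For LPCAT3 the sertraline effect differed by -0.61 ± 0.14 (SE, adjusted p = 0.0137), with a change of -0.22 ± 0.10 in Huh7 (adjusted p = 0.0994) and 0.39 ± 0.10 in Hep3B (adjusted p = 0.00543). For ABCA1 the XL413 effect differed by 0.49 ± 0.13 (adjusted p = 0.0212), with -0.31 ± 0.09 in Huh7 and -0.80 ± 0.09 in Hep3B. For SMPDL3A the XL413 effect differed by 0.82 ± 0.18 (adjusted p = 0.00653), with 0.10 ± 0.13 in Huh7 (adjusted p = 0.647) and -0.72 ± 0.13 in Hep3B (adjusted p = 0.000616). Each line had 1 library per treatment, so repeated cultures could change these values.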

How the results depend on the processing

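Counts of called genes moved with these settings, and the cause was not tested. With no filter on low counts, edgeR called 1585 genes for sertraline against control (831 with the filter), 830 for both drugs against XL413 (159), 238 for XL413 against control (0), 377 for both drugs against sertraline (0) and 2505 for both drugs against control (1564). DESeq2 called 1611, 810, 201, 334 and 2472 in the same order, and 377 and 750 for the line differences of sertraline (737) and XL413 (1510). With no replicate block, the first, the second and the fifth of these had 0 calls, and PLTP, ABCA1 and ABCG1 lost theirs (adjusted p = 1, 0.9999 and 0.9999). Leaving out each library gave 89 to 682, 2 to 302, 0 to 3, 0 to 2 and 6 to 1793 calls for the 5 comparisons, and 210 to 1738 and 496 to 1899 for the line differences. DESeq2 size factors kept the 9 counts within 1.5 times and the 33 member results on their side of the threshold. None of those 33 changed sign under the settings run for it, where DESeq2 was run for 20 of them and no block for 11. The 33 were followed because their unadjusted edgeR p was under 0.05 or, inside a line, because they were called. Their steady sign therefore says nothing about the weaker results, which were not followed. A pseudocount of 0.1 CPM moved 19 of 70 log2 ratios inside a line by at least 0.1, and 1 CPM moved 9. Depth limits ABCG1, and in Hep3B also ABCG5 and ABCG8, which rest on 0 to 9 reads per library.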

Other observations

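Among genes of the same pathway, NPC1L1, the sterol importer of the canalicular membrane, was higher in Hep3B than in Huh7 (Huh7 against Hep3B -2.52 ± 0.20, SE, edgeR adjusted p = 1.52e-05), the opposite of ABCG5 and ABCG8, which export sterol at the same membrane. ABCA7, a relative of ABCA1, rose with both drugs against control by 1.16 ± 0.17 (edgeR adjusted p = 0.0131), where ABCA1 fell. APOM, an apolipoprotein of HDL, fell by 0.92 ± 0.13 in that comparison (adjusted p = 0.012), and CYP39A1, an oxysterol hydroxylase, fell by 1.42 ± 0.21 (adjusted p = 0.013). In the same comparison, 4 of 14 paralogs tested were called higher and none lower. Of 13 genes for sterol acceptors and storage, 1 was higher and 1 lower. Of 5 oxysterol and bile acid enzymes, 2 were higher and 1 lower. Of all genes tested, 4.84% were called higher and 4.37% lower.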
